A study of Homo sapiens with 4 samples.

Results

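The genes described here are MYC and 8 other genes of the network of basic helix-loop-helix leucine zipper factors built around MAX: MAX, MXD1, MXI1, MXD3, MXD4, MNT, MGA and MLX. They were taken by gene symbol, and all 9 were present among the 20003 genes with a usable symbol and among the 11124 that were tested. The set was chosen by gene name and by the RPKM values of MXD1, which had been seen to differ between the 2 knockdown libraries. MXD1 is therefore described without a test, and tests are given for the other 8 members, whose values did not enter the rule, although the set was drawn up with earlier results of these data known. The cells were HCT116, an established human colorectal cancer line of epithelial origin. They carried either a short hairpin RNA against NUDT21 (libraries shNUDT21 1 and shNUDT21 5) or, as controls labelled WT, an shPLKO vector (libraries shPLKO 1 and shPLKO 2), which the series text calls shScramble, and both groups are labelled as untreated and with the same time of 1, without a unit. The NUDT21 protein belongs to cleavage factor Im, a complex that takes part in choosing where mRNA 3' ends are made, and the comparison asks what its depletion does to mRNA levels. It is not stated whether 1 and 5 stand for different hairpins or for repeats of the same hairpin, or whether a group's libraries stem from separate cultures. The p-values here therefore measure only how these 4 libraries scatter, and that scatter may be technical.

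MYC is a transcription factor that drives growth, ribosome production and proliferation, and in colorectal cancer its gene is a well-known target of Wnt signalling. It binds DNA only as a dimer with MAX, chiefly at the E-box CACGTG. The MXD proteins (MXI1 is also called MXD2) and MNT compete for MAX and for the same sites, and they recruit the SIN3 and histone deacetylase corepressor. MGA is a large MAX partner of a Polycomb-type repressor complex. MLX is a MAX-like protein that pairs with the glucose-sensing Mondo factors MLXIP and MLXIPL, and with MXD1, MXD4 and MNT. Levels below are RPKM, reads scaled to the length of the gene model and to the depth of the library. Comparisons between genes, including the orders, sums and ratios below, depend on the gene model lengths. The recovered lengths were 4518 bases for MYC and 3215 for MAX, against longest coding transcripts of 2366 and 3155 bases. The effect of these lengths on the comparisons was not tested. Fold changes are on the log2(RPKM + 1) scale, which understates the change of low genes.

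Total depth was between 29963980 and 30459886 reads per library. NUDT21 was at 3.96 and 2.999 RPKM in shNUDT21 1 and 5, against 24.3 and 26.9 RPKM in shPLKO 1 and 2, in keeping with the labels of all 4 libraries. Of 7 epithelial markers, EPCAM, CDH1, KRT8, KRT18, KRT19 and CDX2 were above 4 RPKM in every library and VIL1 was at or below 0.133 RPKM. Of the 6 epithelial markers tested, KRT8 and KRT18 fell to 0.326 and 0.329 times the controls (limma adjusted p 0.0406 each). The ratios of KRT19, EPCAM, CDH1 and CDX2 were 0.553, 1.31, 1.28 and 1.37, and none of these passed. The part of these differences in the results below was not tested. Of 6 markers of other cell types, PTPRC, PECAM1, DCN and ALB were at or below 0.051 RPKM in every library, GFAP was at or below 0.891 RPKM, and COL1A1 was between 4.38 and 6.96 RPKM. The 2 knockdown libraries differed from each other more than the 2 controls did. Over all genes tested, the median size of the log2 difference was 0.28 between shNUDT21 5 and shNUDT21 1 and 0.077 between shPLKO 2 and shPLKO 1. In bulk RNA, fewer cells of a kind and less RNA per cell cannot be told apart, and gene-level values do not tell isoforms or 3' ends apart.

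MYC was the most abundant member in both groups and stayed within a narrow range. It had 87.9 and 85.3 RPKM in shNUDT21 1 and 5, against 83.6 and 78.9 RPKM in shPLKO 1 and 2, from between 10799 and 12006 reads per library. The groups averaged 86.6 ± 1.82 RPKM in shNUDT21 and 81.2 ± 3.32 RPKM in shPLKO (SD, n = 2 each) and did not overlap, with a ratio of means of 1.07. MYC did not pass the test (log2 fold change 0.09, SE 0.13, limma adjusted p 0.635), and the 95% interval ran from -0.24 to 0.42. Its log2 fold change was 0.29 (limma adjusted p 0.175) once the dependence on GC content and transcript length was taken out. Its exons overlap no other annotated gene. MAX, the partner that MYC needs to bind DNA, was at 20.6 and 15.5 RPKM in shNUDT21 1 and 5, against 13.8 and 12.7 RPKM in shPLKO 1 and 2. Its ratio of means was 1.36 (log2 fold change 0.40, SE 0.18, limma adjusted p 0.184), with a 95% interval from -0.06 to 0.87. With GC content and length taken into account, the log2 fold change of MAX was 0.53 (limma adjusted p 0.113). The excess over control was larger in shNUDT21 1 (1.55 times the control mean) than in shNUDT21 5 (1.17 times). The ratio of MYC to MAX, both in RPKM, was 4.27 and 5.49 in shNUDT21 1 and 5, against 6.03 and 6.19 in shPLKO 1 and 2.

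**Figure D1:**
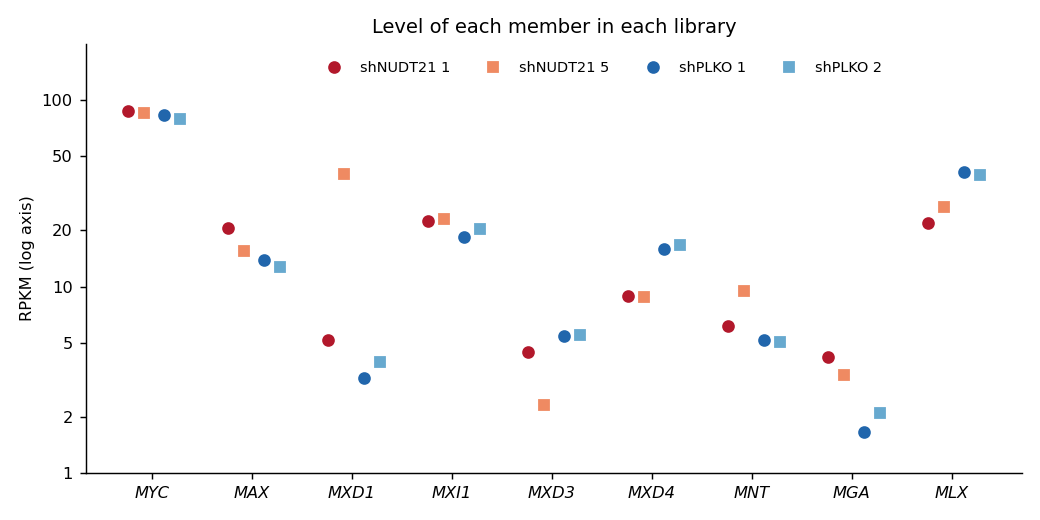
RPKM of the 9 members on a log axis, with 1 point per library (red and orange, shNUDT21 1 and 5; dark and light blue, shPLKO 1 and 2). MYC lies between 78.9 and 87.9 RPKM in all 4 libraries, MXD4 and MLX lie lower in both knockdown libraries, and MXD1 is at 40.3 RPKM in shNUDT21 5 and between 3.25 and 5.13 RPKM in the other libraries.

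MXD1 is the member in which the knockdown libraries parted most. MXD1 encodes a MAX partner that represses E-box genes and is known to be induced in differentiating cells. Its level was 5.13 RPKM (95% counting interval 4.80 to 5.49) in shNUDT21 1 and 40.3 RPKM (39.3 to 41.2) in shNUDT21 5, against 3.25 RPKM (2.99 to 3.53) in shPLKO 1 and 3.91 RPKM (3.62 to 4.22) in shPLKO 2. These values rest on 872, 6776, 556 and 666 reads. Both knockdown libraries were above both controls, at 1.43 times the control mean in shNUDT21 1 and 11.2 times in shNUDT21 5. The ratio of shNUDT21 5 to shNUDT21 1 was 7.84, and that of shPLKO 2 to shPLKO 1 was 1.20. Ordered by the log2 difference of shNUDT21 5 minus shNUDT21 1, MXD1 (2.75) was at rank 2 of the 11124 genes tested, after SEMA7A, a membrane semaphorin, which had 31.8 and 266.8 RPKM in shNUDT21 1 and 5, against 65.8 and 72.8 RPKM in shPLKO 1 and 2. Because this difference chose the gene, it is a description of these 2 libraries and carries no test.

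Of the neighbours of MXD1 looked at, only SNRNP27 was high enough to judge, and it did not show the pattern. SNRNP27, a spliceosome gene that begins upstream of MXD1 on the same strand and shares 237 annotated exon bases with it, was at 19.96 and 23.1 RPKM in shNUDT21 1 and 5, against 22.6 and 23.8 RPKM in shPLKO 1 and 2. ASPRV1, the next gene on the other side, was at or below 0.425 RPKM in every library, under the level filter and too low to judge. The tested genes whose profiles over the 4 libraries lay closest to MXD1 were SDCBP2, MMP1 and TMPRSS11E, at Euclidean distances of 0.35, 0.55 and 0.56 between centred log2(RPKM + 1) profiles. SDCBP2 was at 5.50 and 40.4 RPKM in shNUDT21 1 and 5, against 3.49 and 2.88 RPKM in shPLKO 1 and 2. MMP1 was at 1.79 and 10.9 RPKM in shNUDT21 1 and 5, and TMPRSS11E at 1.35 and 9.81 RPKM, with both below 1 RPKM in each control. For MYC the closest were TP53I11, KCTD1 and DPP7, at distances of 0.0049, 0.020 and 0.020. Each profile has only 4 values, so likeness over these libraries is a weak measure.

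**Figure D2:**
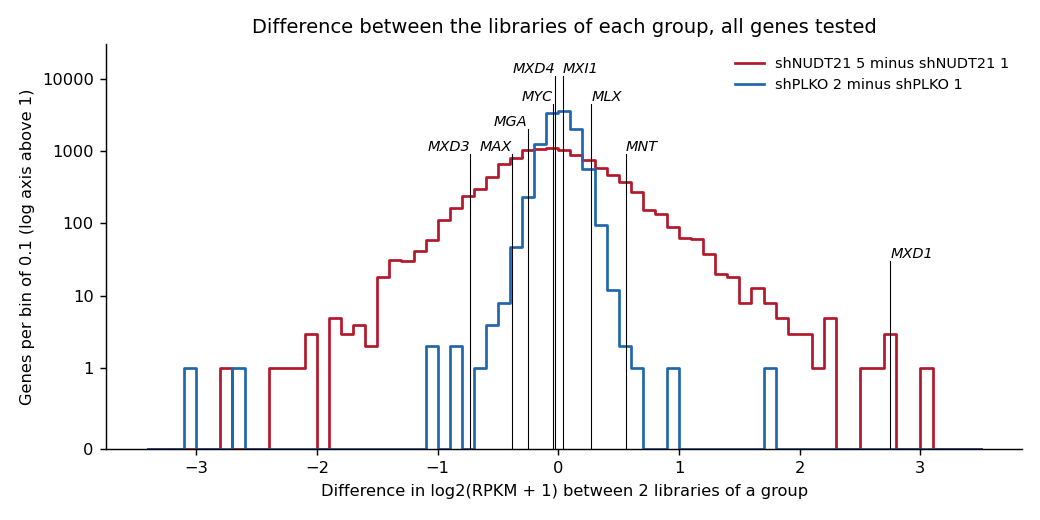
Number of the 11124 tested genes (log axis above 1) by the difference in log2(RPKM + 1) between the libraries of a group, for shNUDT21 5 minus 1 (red) and shPLKO 2 minus 1 (blue), with the 9 members marked at their shNUDT21 5 minus 1 value. MXD1 lies at 2.75, in the far right tail, and the other 8 members lie between -0.73 and 0.56.

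The promoter window of MXD1, which RefSeq places at chr2:69914859-69915158 on the plus strand of GRCh38.p14, is shown because this gene had the widest range of all members in ratio. It runs from 250 bases before the annotated start to 50 bases after it, and it holds no CACGTG, so no base is in capitals.
MXD1: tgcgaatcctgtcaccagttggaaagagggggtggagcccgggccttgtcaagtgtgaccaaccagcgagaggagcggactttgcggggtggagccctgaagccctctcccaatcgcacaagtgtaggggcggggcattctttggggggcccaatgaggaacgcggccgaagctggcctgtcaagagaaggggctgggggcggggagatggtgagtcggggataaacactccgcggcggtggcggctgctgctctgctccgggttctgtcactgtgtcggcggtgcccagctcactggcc

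The E-box CACGTG, which reads the same on both strands, stood in the promoter windows of MXD4, MNT and MLX. RefSeq windows were available for 8 members, 13 windows in all, and 3 windows held the motif. Of 35116 windows of 300 bases in the table, 7.26% held it, and of the 8838 tested genes with a window, 12.9% had it in at least 1. No window for MYC was used. The 3 windows are shown because they carry the site that proteins of this network bind, with CACGTG in capitals. The window of MXD4 is chr4:2262060-2262359 on the minus strand, that of MNT chr17:2401011-2401310 on the minus strand and that of MLX chr17:42566850-42567149 on the plus strand, all in GRCh38.p14. The motif begins 238, 193 and 50 bases before the annotated start.
MXD4: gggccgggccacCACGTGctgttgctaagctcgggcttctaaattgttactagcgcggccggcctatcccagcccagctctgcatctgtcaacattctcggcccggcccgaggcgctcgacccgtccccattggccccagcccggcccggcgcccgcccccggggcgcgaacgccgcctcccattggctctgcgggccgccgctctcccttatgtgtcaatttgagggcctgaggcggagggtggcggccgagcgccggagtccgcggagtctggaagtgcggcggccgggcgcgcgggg
MNT: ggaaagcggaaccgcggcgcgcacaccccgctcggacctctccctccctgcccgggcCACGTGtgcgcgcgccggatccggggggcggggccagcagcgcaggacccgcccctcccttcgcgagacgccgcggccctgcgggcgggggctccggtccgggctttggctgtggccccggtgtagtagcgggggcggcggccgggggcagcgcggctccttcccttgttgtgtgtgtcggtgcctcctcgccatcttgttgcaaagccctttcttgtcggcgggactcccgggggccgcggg
MLX: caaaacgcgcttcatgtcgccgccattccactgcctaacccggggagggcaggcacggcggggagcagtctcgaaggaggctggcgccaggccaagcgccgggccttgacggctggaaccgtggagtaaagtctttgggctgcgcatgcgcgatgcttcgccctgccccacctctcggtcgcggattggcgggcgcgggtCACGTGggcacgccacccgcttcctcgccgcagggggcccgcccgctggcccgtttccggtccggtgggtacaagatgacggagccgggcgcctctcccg

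The other members of the MXD family lay on both sides of the controls, MXI1 above and MXD3 and MXD4 below. MXD4 fell, and it was the 1 member of the 8 tested that passed the test over all genes. MXD4 encodes a MAX partner that is expressed in resting and differentiated cells. It stood at 8.92 and 8.73 RPKM in shNUDT21 1 and 5, against 15.9 and 16.7 RPKM in shPLKO 1 and 2. The groups averaged 8.82 ± 0.129 RPKM in shNUDT21 and 16.3 ± 0.557 RPKM in shPLKO (SD, n = 2 each), so the gap was far wider than the spread within either. The ratio of means was 0.540 (log2 fold change -0.82, SE 0.12, limma adjusted p 0.0429). Over all 11124 genes 5.82% passed, with 2.61% higher and 3.21% lower, so 1 of 8 is read against that share. Transcripts of MXD4 are rich in G and C (64.0% of the longest coding transcript, against a median of 49.95% over the tested genes), and log2 fold changes in these data were lower at higher GC content (Spearman rho -0.40 across 11040 genes, which are not independent replicates and share their libraries). MXD4 no longer passed once the dependence on GC content and transcript length was taken out (log2 fold change -0.64, limma adjusted p 0.0612), or with no level filter (limma adjusted p 0.0653). Without shPLKO 1 or shPLKO 2 its log2 fold change was -0.85 or -0.79 and it did not pass either (limma adjusted p 0.495 and 0.454).

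MXD3, a MAX partner known from S phase in proliferating cells, was at 4.48 and 2.30 RPKM in shNUDT21 1 and 5, against 5.44 and 5.51 RPKM in shPLKO 1 and 2. Both knockdown libraries were lower, shNUDT21 5 more so, and the gene did not pass (log2 fold change -0.61, SE 0.27, 95% interval -1.30 to 0.09, limma adjusted p 0.184). With GC content and length taken into account, the log2 fold change of MXD3 was -0.40 (limma adjusted p 0.330). Annotated exons of MXD3 share 926 bases with RAB24 on the same strand and 1158 bases with PRELID1 on the opposite strand. The use of strand in counting is not known, so reads of MXD3 could not be kept apart from theirs with certainty. RAB24 was at 13.6 and 19.2 RPKM in shNUDT21 1 and 5, against 19.3 and 18.8 RPKM in shPLKO 1 and 2. MXI1, which is also a MAX-dependent repressor, was at 22.4 and 23.0 RPKM in shNUDT21 1 and 5, against 18.5 and 20.2 RPKM in shPLKO 1 and 2. It was slightly higher in both knockdown libraries without passing (log2 fold change 0.22, SE 0.12, 95% interval -0.11 to 0.54, limma adjusted p 0.283), and with GC content and length taken into account its log2 fold change was 0.066 (limma adjusted p 0.726).

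**Figure D3:**
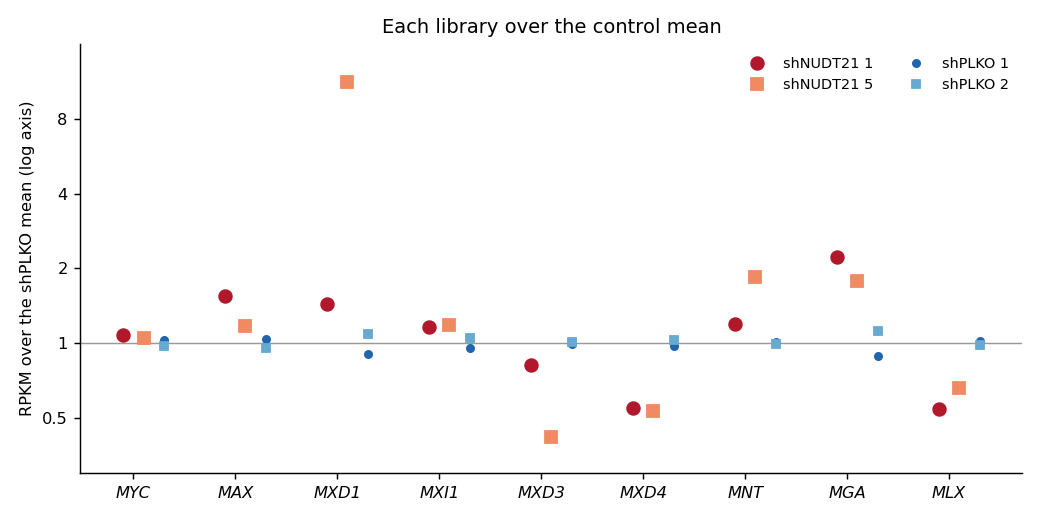
RPKM of each member in each library over the mean of the 2 shPLKO libraries, on a log axis (large red and orange points, shNUDT21 1 and 5; small blue points, shPLKO 1 and 2). The control points stay close to 1, MXD4 lies at 0.546 and 0.535 in the knockdown libraries, and MXD1 reaches 11.2 in shNUDT21 5.

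Summed over MXD1, MXI1, MXD3 and MXD4, the family had 40.9 and 74.3 RPKM in shNUDT21 1 and 5, against 43.2 and 46.4 RPKM in shPLKO 1 and 2. The sum holds MXD1, the gene whose difference between the knockdown libraries entered the choice, and the excess in shNUDT21 5 rests on it. Without MXD1, the sum of the other 3 was 35.8 and 34.0 RPKM in shNUDT21 1 and 5, against 39.9 and 42.5 RPKM in shPLKO 1 and 2, so both knockdown libraries were then below both controls. MXD1 made up 12.5% of the sum in shNUDT21 1 and 54.2% in shNUDT21 5, against 7.53% and 8.43% in shPLKO 1 and 2. MXD4 made up 21.8% and 11.8% in shNUDT21 1 and 5, against 36.9% and 36.1% in shPLKO 1 and 2. In the controls and in shNUDT21 1 the most abundant of these members was MXI1, and in shNUDT21 5 it was MXD1. The ratio of MYC to the family sum was 2.15 and 1.15 in shNUDT21 1 and 5, against 1.94 and 1.70 in shPLKO 1 and 2. Its low value in shNUDT21 5 likewise rests on MXD1. Without MXD1 in the sum the ratio was 2.45 and 2.51 in shNUDT21 1 and 5, against 2.09 and 1.86 in shPLKO 1 and 2. These sums and ratios were not tested. The fall of MXD4, which enters them, did not pass once the dependence on GC content and transcript length was taken out (limma adjusted p 0.0612).

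**Figure D4:**
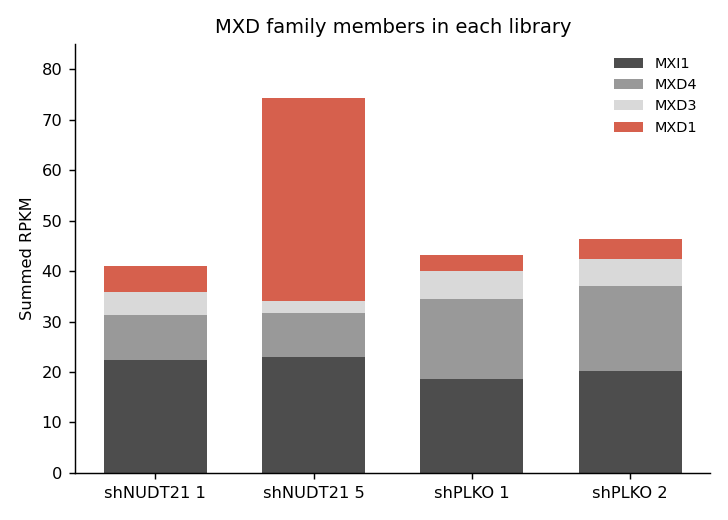
RPKM of MXI1, MXD4, MXD3 and MXD1 (red) stacked to their sum in each library. The sum is 40.9 and 74.3 RPKM in shNUDT21 1 and 5 and 43.2 and 46.4 RPKM in shPLKO 1 and 2, and the part of MXD1 is largest in shNUDT21 5.

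MNT, the most widely expressed MAX partner of the repressor kind, was at 6.11 and 9.46 RPKM in shNUDT21 1 and 5, against 5.14 and 5.07 RPKM in shPLKO 1 and 2. It was higher in both knockdown libraries, mainly in shNUDT21 5, and did not pass (log2 fold change 0.50, SE 0.22, 95% interval -0.07 to 1.07, limma adjusted p 0.183). With GC content and length taken into account, the log2 fold change of MNT was 0.66 (limma adjusted p 0.116). MGA was the lowest member in the controls. It was at 4.17 and 3.33 RPKM in shNUDT21 1 and 5, against 1.66 and 2.08 RPKM in shPLKO 1 and 2. The ratio of means was 2.003, and the unadjusted 95% interval of the log2 fold change ran from 0.31 to 1.14. The gene missed the threshold (log2 fold change 0.72, SE 0.16, limma adjusted p 0.0614). Its longest coding transcript is poor in G and C (42.0%), and its log2 fold change was 0.38 (limma adjusted p 0.187) once the dependence on GC content and length was taken out. Noncoding genes on the opposite strand share 1065 annotated exon bases with MNT and 510 with MGA, and likewise 184 with MAX and 205 with MXI1.

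MLX was at 21.9 and 26.6 RPKM in shNUDT21 1 and 5, against 41.4 and 39.6 RPKM in shPLKO 1 and 2. The groups averaged 24.3 ± 3.37 RPKM in shNUDT21 and 40.5 ± 1.22 RPKM in shPLKO (SD, n = 2 each). Both knockdown libraries were well below both controls, with a ratio of means of 0.599. The gene missed the threshold (log2 fold change -0.72, SE 0.15, unadjusted 95% interval -1.11 to -0.33, limma adjusted p 0.0580). With GC content and length taken into account, the log2 fold change of MLX was -0.57 (limma adjusted p 0.112). PSMC3IP, whose exons share 770 bases with MLX on the opposite strand, was at 6.83 and 3.71 RPKM in shNUDT21 1 and 5, against 2.07 and 2.46 RPKM in shPLKO 1 and 2. This overlapping gene was higher in both knockdown libraries without passing the test (limma adjusted p 0.0994).

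Members also differed in how well the 2 knockdown libraries matched each other. MYC, MXI1 and MXD4 matched closely, with ratios of shNUDT21 5 to shNUDT21 1 of 0.971, 1.03 and 0.980. By size in either direction, 91.5%, 93.1% and 94.6% of tested genes had a larger log2 difference between the 2 libraries. MGA and MLX lay near the middle, with ratios of 0.799 and 1.22 and 53.9% and 51.0% of genes above them. MAX, MNT and MXD3 were farther apart, with ratios of 0.754, 1.55 and 0.514 and 36.2%, 20.03% and 10.9% of genes above them. For MXD1 only 0.018% of genes lay above, a value from the contrast that chose it. That share is 2 genes by size in either direction, against 1 gene above MXD1 in the signed order given earlier.

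Across the 8 members tested, 5 had a positive and 3 a negative log2 fold change, with a median of 0.15, against -0.0027 over all genes tested. Of the 8, 3 had an unadjusted p under 0.05 (MXD4, MLX and MGA; limma), against 33.9% of all genes. In all 8 the groups did not overlap, as in 66.2% of all genes, and they did not overlap in MXD1 either. In the controls the order of RPKM levels was MYC, MLX, MXI1, MXD4, MAX, MXD3, MNT, MXD1 and MGA, with no overlap between neighbours. This order also rests on the gene model lengths, which the scatter of the libraries does not cover. Those lengths were 9096 bases for MNT and 3161 for MXD3, against longest coding transcripts of 4996 and 2269 bases. In the knockdown group the order of the means was MYC, MLX, MXD1, MXI1, MAX, MXD4, MNT, MGA and MXD3. There MXD1 overlapped both MLX and MXI1, MXD4 overlapped MNT, and MGA overlapped MXD3, so the order of these neighbours is not fixed by the 2 libraries.

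Of the members with CACGTG in the promoter windows shown above, MXD4 fell, MLX had a ratio of 0.599 and MNT a ratio of 1.52. A match of these letters is a description of the window, and binding was not measured. The members also differed in UGUA, the motif that NUDT21 binds in RNA. The longest annotated 3' UTR held 6.54 UGUA per kb in MAX, 6.21 in MGA, 6.22 in MXD1 and 8.40 in MYC, and between 1.24 and 3.36 per kb in MXD3, MLX, MXD4, MNT and MXI1. The value of MYC rests on only 4 motifs in 476 bases. MAX had 17 in 2601 bases, MGA 36 in 5801 and MXD1 29 in 4661. The median over 11027 tested genes was 4.82 per kb. Across these genes Spearman's rho between log2 fold change and UGUA per kb was 0.26, given as a description, since the genes share the 4 libraries and base composition was not held constant.

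Of 154 tested genes in 7 lists of partners, regulators and targets of the network, 8 passed the test, against 5.82% of all genes. The counts below are read against 2.61% of all genes called higher, 3.21% called lower and 33.9% at an unadjusted p under 0.05. When low genes were not filtered out, without shPLKO 1 or without shPLKO 2 none of these 8 passed (limma), and of the 8, CREBBP and FTH1 also passed once the dependence on GC content and length was taken out. Of the paralogs, Mondo factors and 2 well-known Mondo targets, 4 of 6 passed the level filter and 0 passed the test (limma, 1 at an unadjusted p under 0.05). The 2 under the filter were MYCN, listed at 0 in all 4 libraries, and TXNIP. MLXIPL and MLXIP, the partners of MLX, had ratios of 0.803 and 0.856 (limma adjusted p 0.174 and 0.363). MYCL was at 6.88 and 3.17 RPKM in shNUDT21 1 and 5, against 3.92 and 4.09 RPKM in shPLKO 1 and 2, above both controls in the one library and below both in the other. ARRDC4, an arrestin-like gene under Mondo and MLX control, was at 70.4 and 57.0 RPKM in shNUDT21 1 and 5, against 30.1 and 35.0 RPKM in shPLKO 1 and 2. It missed the threshold (log2 fold change 0.94, SE 0.17, limma adjusted p 0.0505) and passed it with quantile normalization or median-of-ratios scaling (limma adjusted p 0.0478 and 0.0436). It did not pass once the dependence on GC content and length was taken out, or with no level filter (limma adjusted p 0.0683 and 0.0779). TXNIP, the best-known Mondo target and a relative of ARRDC4, was at 0.246 and 0.201 RPKM in shNUDT21 1 and 5, against 0.216 and 0.227 RPKM in shPLKO 1 and 2, from 21 to 26 reads per library, so no difference was detectable at this depth.

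In the SIN3 and histone deacetylase corepressor that MXD proteins recruit, 0 of 19 tested genes passed (limma, 5 at an unadjusted p under 0.05), with a median log2 fold change of 0.021. NCOR1, a nuclear receptor corepressor, was at 2.31 and 2.53 RPKM in shNUDT21 1 and 5, against 1.14 and 1.22 RPKM in shPLKO 1 and 2, and did not pass (limma adjusted p 0.0507). SAP30L and ARID4B, both of the SIN3 complex, had ratios of 0.542 and 1.41 (limma adjusted p 0.0647 and 0.101), and SAP30L passed with quantile normalization (limma adjusted p 0.0469). SAP30L did not pass with the dependence on GC content and length taken out, or with no level filter (limma adjusted p 0.0699 and 0.111). Of 21 MYC coactivators, 1 rose and 1 fell, against 5.82% of all genes called in either direction, and 9 had an unadjusted p under 0.05 (limma, median -0.029). CREBBP, a histone acetyltransferase, rose to 7.14 and 7.11 RPKM in shNUDT21 1 and 5, against 3.79 and 3.71 RPKM in shPLKO 1 and 2 (log2 fold change 0.77, SE 0.12, limma adjusted p 0.0444). DMAP1, of the TIP60 acetyltransferase complex, fell to 7.77 and 6.97 RPKM, against 14.6 and 14.2 RPKM in the controls (log2 fold change -0.88, SE 0.13, limma adjusted p 0.0421). RUVBL2, a helicase-like subunit of the same complex, and BPTF, of a chromatin remodeller, had ratios of 0.554 and 1.59 without passing (limma adjusted p 0.0568 and 0.0709).

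Of 20 genes that act on the stability of MYC protein, 1 rose and 1 fell, against 5.82% of all genes, and 5 had an unadjusted p under 0.05, against 33.9% of all genes (limma, median 0.084). STUB1, a chaperone-linked ubiquitin ligase, fell to 30.2 and 31.0 RPKM in shNUDT21 1 and 5, against 68.4 and 63.7 RPKM in shPLKO 1 and 2 (log2 fold change -1.08, SE 0.12, limma adjusted p 0.0406). SET, an inhibitor of the phosphatase PP2A, rose to 117.8 and 93.3 RPKM, against 52.7 and 54.9 RPKM in the controls (log2 fold change 0.95, SE 0.16, limma adjusted p 0.0494). CIP2A, another PP2A inhibitor, had a ratio of 2.32 and did not pass (limma adjusted p 0.0610). In the MGA complex and its Polycomb partners, 0 of 15 passed (limma, 2 at an unadjusted p under 0.05, median 0.097). The lowest p there were those of EHMT2, a histone methyltransferase, with a ratio of 0.653, TFDP1, an E2F partner, with 1.35, RYBP with 1.33 and CBX3 with 1.23 (limma adjusted p 0.0577, 0.113, 0.164 and 0.184). SET and CBX3 have processed pseudogenes, with which reads could be shared.

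**Figure D5:**
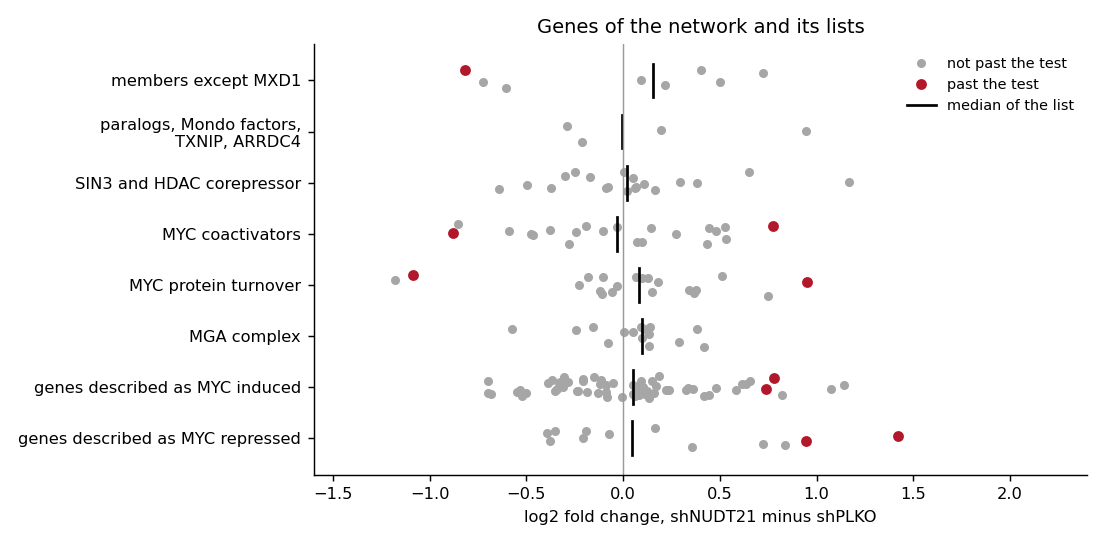
Log2 fold change of shNUDT21 minus shPLKO for the 8 tested members and for each gene of 7 lists (grey, not past the test; red, past the test; black bar, list median). The list medians lie between -0.029 and 0.097, and the members' median is 0.15.

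Genes described in the literature as MYC targets were split about evenly in sign. Of 66 tested genes described as MYC induced, 34 had a positive and 32 a negative log2 fold change, 2 rose and 0 fell, against 2.61% and 3.21% of all genes. In this list 14 had an unadjusted p under 0.05, against 33.9% of all genes (limma, median 0.051). PRMT3, an arginine methyltransferase that acts on a ribosomal protein, rose to 9.69 and 9.50 RPKM in shNUDT21 1 and 5, against 5.03 and 5.29 RPKM in shPLKO 1 and 2 (log2 fold change 0.78, SE 0.12, limma adjusted p 0.0444). WDR43, a ribosome biogenesis factor, rose to 36.1 and 33.5 RPKM, against 20.4 and 20.6 RPKM in the controls (log2 fold change 0.74, SE 0.12, limma adjusted p 0.0473). PHB, prohibitin, had a ratio of 0.613 and SLC29A2, a nucleoside transporter, one of 1.95 (limma adjusted p 0.0518 and 0.0532), and PHB passed with quantile normalization and SLC29A2 with median-of-ratios scaling (limma adjusted p 0.0467 and 0.0451). SLC29A2 also passed once the dependence on GC content and length was taken out (log2 fold change 1.06, limma adjusted p 0.0497), and PHB did not (limma adjusted p 0.0817). With no level filter neither PHB nor SLC29A2 passed (limma adjusted p 0.0738 and 0.0896). CCND2, TERT, NME2 and UTP20 were under the level filter. Of 12 tested genes described as MYC repressed, 6 had a positive and 6 a negative log2 fold change, and 2 rose, against 2.61% of all genes. In this list 5 had an unadjusted p under 0.05, against 33.9% of all genes (limma, median 0.044). The 2 that rose were FTH1, the ferritin heavy chain, with a ratio of 2.68 (log2 fold change 1.42, SE 0.17, limma adjusted p 0.0406), and GADD45A, a growth arrest gene, with a ratio of 1.93 (log2 fold change 0.94, SE 0.14, limma adjusted p 0.0431). DDIT3 and CDKN2B, a stress-induced factor and a cyclin-dependent kinase inhibitor, stood at 1.68 and 1.96 times the controls without passing (limma adjusted p 0.0916 and 0.104). GAS1 was under the filter. PHB and FTH1 also have processed pseudogenes.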

How the data were processed

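Total RNA of HCT116 cells was made into libraries with a SMARTer mRNA-Seq kit, per the labels' protocols. Bowtie 0.12.2 and the build hg18 appear in the submitters' processing notes, with no role or order. The deposited values are RPKM, not logged, with 1 library per file. The headers give no unit, so it was inferred from the values. The sources used here do not give the counter, the annotation or the handling of strand. Of 20030 entries per file, 27 had a date for a symbol and were left out.

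Whole reads were recovered from the steps between values (tolerance 1e-06, which the search imposes). The total of shPLKO 1 was the most frequent common divisor of gene length times total, found for 8792 pairs of genes against 2256 for the next. Reads of MXD1 and MXD3 needed a factor of 2 for a whole length. Counting intervals are exact Poisson 95% intervals and cover counting error only, since reads carry no molecular identifiers.

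Genes averaging 1 RPKM or more over the 4 libraries were tested on the log2(RPKM + 1) scale. The fit used limma 3.58.1 (R 4.3.3), an intensity-dependent prior and no covariate, and calls were made at a two-sided Benjamini-Hochberg adjusted p under 0.05 over 11124 genes, and 2 residual and 2.71 prior degrees of freedom. It was checked on simulated data in which both groups had the same spread. That check does not cover the wider spread of the knockdown libraries, so it does not vouch for the p-values here. Other settings were another pseudocount, filter and scaling, no trend, and each library left out; removal of the trend with GC content and length was added after seeing the data. Members and lists were chosen with earlier results of these data known. Named were all members, NUDT21, in each list the 4 genes with the lowest p and every gene past the test, and the 3 genes closest to MYC and MXD1. Some genes that this rule names are not reported here. SEMA7A and genes overlapping or beside members were added after their values were seen. GENCODE v29 gave transcript lengths, GC content, 3' UTRs and exon overlaps of at least 50 bases, and RefSeq the promoters. Both are of another build than hg18.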

Additional observations from a re-analysis of the deposited data

How the results depend on the processing

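No adjusted p over all genes was under 0.0406 (limma), so calls sit near the threshold. With a pseudocount of 0.1, quantile normalization, median-of-ratios scaling or no intensity trend, MXD4 still passed and no other of the 8 tested members did, with log2 fold changes of MXD4 from -0.88 to -0.81. The genes past the test, of which there were 290 higher and 357 lower over all genes, 1 among the members and 8 among the listed genes, numbered 0, 0, 0 and 0 with no filter on low values (limma, 4762 at an unadjusted p under 0.05), where more genes were tested. With the trend of GC content and length removed, a setting chosen after seeing the data, they numbered 152, 122, 0 and 3 (limma, 3315 at an unadjusted p under 0.05), and MXD4, at an adjusted p of 0.0612, was lost. Leaving out a library gave between 0 and 3766 higher, 0 and 4005 lower, 0 and 7 members and 0 and 109 listed genes past the test. The low ends came without shPLKO 1 or shPLKO 2, with 1 higher gene in all without shPLKO 1, and the high ends without a knockdown library, where the spread rests on the 2 similar controls and the lone library is assumed to vary like them. MYC had between 0.050 and 0.29 in all settings. MXD1 had a log2 difference of 3.17 without shNUDT21 1 and 0.42 without shNUDT21 5. MYCL reversed to -0.26 without shNUDT21 1 and had 0.66 without shNUDT21 5. The log2 fold changes of the other 8 members kept their direction in every setting. No paired analysis was made, because the labels pair no knockdown library with a control.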
